A study of Mus musculus with 6 samples.

Results

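The genes described here are the mouse zinc finger genes that carry the symbol Zfp followed by digits alone, such as Zfp57 and Zfp932. They were chosen by symbol only, without Zfp42, and 96 of the 6532 genes in the deposited table belonged to the set. The study asked how pyruvate kinase M (PKM), an enzyme of glycolysis that was also studied as an RNA-binding protein, bears on translation in embryonic stem cells. All samples came from E14, an established mouse line of such cells, grown in serum medium with LIF. Cells of the siPKM group were wild type and received an siRNA pool against PKM1 and PKM2. Cells of the siCtrl group were wild type and received a non-targeting pool. Both pools were used at 20 nM for 36 h, and cells were passaged 16 h before harvest. Each siRNA group gave 1 total RNA library, made after removal of rRNA, and 1 library of ribosome-protected fragments (RPF, also called footprints), taken after 2 min in cycloheximide at 100 µg/ml. The other 2 libraries were FAST-iCLIP replicates of E14 cells of the genotype PKM2_FLAG_HA, given no siRNA and exposed to 0.35 J per cm2 of UV light to crosslink RNA to protein. In this assay RNA crosslinked to the tagged enzyme is purified, and the positions where reverse transcription stops are counted. The labels do not tie the CLIP replicates to different cultures, and the SD between them may be technical.

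Most proteins named Zfp bind DNA through C2H2 zinc fingers, small folds in which a pair of cysteines and a pair of histidines hold a zinc ion. A large class joins such fingers to a KRAB domain, which recruits the corepressor Trim28 and with it the histone methyltransferase Setdb1, heterochromatin proteins and DNA methylation, and in embryonic stem cells this silences retroelements and protects imprinted genes. The name is also carried by proteins that act on RNA, on ribosomes or in ubiquitin transfer, so the set shares a naming habit rather than a single function.

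The 4 RNA and RPF libraries held between 10349212 and 15175242 reads in coding sequences (CDS, here without the first 15 and last 5 codons), and the CLIP replicates held 677534 and 670508 stops. The targeted gene, listed as Pkm2, had 1582 CPM (reads scaled to a common library size) in siPKM RNA and 5024 in siCtrl RNA, a log2 ratio of -1.71. Of 12 stem cell markers 11 were in the table, with a summed RNA level of 5080 CPM in siPKM and 5208 in siCtrl. Marker lists of other types were mostly not in the table. The trophoblast list had 2 of 6 genes, summing to 58.1 CPM in siPKM RNA and 40.0 in siCtrl RNA, the fibroblast list had 1 of 4 (304 and 229), the neural list had 3 of 4 (125 and 177) and the primitive endoderm list had 0 of 5. The part of these differences in the results below was not tested. With 1 library of each kind per siRNA group there was no test of the conditions and no replicate check, so differences between siPKM and siCtrl are given with 95% intervals that cover counting error only. In bulk libraries fewer cells with a message and less message per cell cannot be told apart.

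As a set, the Zfp messages lay close to the median gene in siPKM against siCtrl, and few were 1.5-fold apart. Counting intervals that excluded 0 lay more often above 0 than below in RNA. In translation efficiency they lay more often below 0. All log2 ratios were centred on the median of the 6532 genes. The members' median log2 ratio was 0.05 in RNA, with 56 members above 0 and 40 below, and 0.01 in RPF, with 50 above and 46 below. Translation efficiency (TE) is the footprint level over the RNA level. Its median log2 change was -0.03, with 41 members above 0 and 55 below. In RNA 5 members (5.21%) were at least 1.5-fold higher in siPKM, Zfp654, Zfp932, Zfp516, Zfp57 and Zfp229, against 2.88% of all genes. At least 1.5-fold lower were 0 members, against 1.24% of all genes.

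In footprints 1 member was at least 1.5-fold higher in siPKM, Zfp229, against 2.66% of all genes, and 0 were lower, against 1.53%. In TE 0 members were at least 1.5-fold higher, against 0.184% of all genes, and 1 was lower, Zfp932, against 0.827%. In counts this small a single member is 1.04% of the set. The counting intervals gave a fuller picture. The RNA interval lay above 0 for 31 members (32.3%) and below 0 for 10 (10.4%), whereas over all genes the shares were 27.7% and 28.7%. The RPF interval lay above 0 for 21 members (21.9%) and below 0 for 21 (21.9%), against 26.6% and 28.7% of all genes. The TE interval lay above 0 for 3 members (3.13%), Zfp91, Zfp459 and Zfp623, and below 0 for 21 (21.9%), against 14.1% and 14.7% of all genes. These shares depend on read depth, and the median member had fewer reads than the median gene in each library (522 against 689 in siPKM RNA, 543.5 against 764 in siCtrl RNA, 406 against 704 in siPKM RPF and 451 against 838 in siCtrl RPF).

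**Figure D1:**
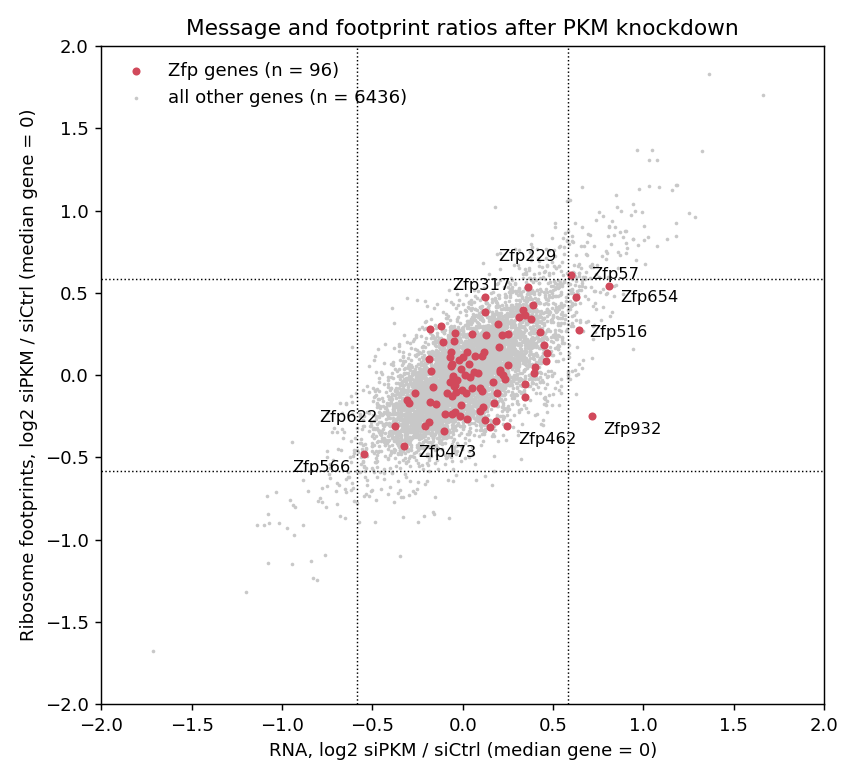
Each point is a gene, placed by its log2 ratio of siPKM over siCtrl in RNA (horizontal axis) and in ribosome footprints (vertical axis), with the 96 Zfp genes in red and all other genes in grey; dotted lines mark 1.5-fold. The 5 Zfp genes past the right-hand line are Zfp654, Zfp932, Zfp516, Zfp57 and Zfp229, and Zfp932 lies apart from them below 0 on the footprint axis.

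Among the KRAB zinc finger proteins known for silencing imprinted genes and retroelements, Zfp57 and Zfp932 were at least 1.5-fold higher in siPKM RNA. Of the 7 genes listed, 6 were in the table, and their RNA ratios were above 0 under each scaling tried. The RNA interval excluded 0 for 3 of them, Zfp57, Zfp932 and Zfp568, and included it for Zfp445, Zfp809 and Zfp819. Zfp57, which keeps DNA methylation at imprinting control regions, had 317 CPM in siPKM RNA and 198 in siCtrl RNA, and 346 CPM in siPKM RPF and 245 in siCtrl RPF. Both kinds of siPKM library were thus higher for Zfp57. Its log2 ratio was 0.63 (95% interval 0.55 to 0.71) in RNA, 0.48 (0.41 to 0.54) in RPF and -0.16 (-0.25 to -0.06) in TE. It was the best-read of the 5 members at least 1.5-fold higher in RNA, with 3282 CDS reads in siPKM and 2404 in siCtrl.

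Zfp932, a KRAB protein that silences endogenous retroviruses in mouse embryonic stem cells, combined more RNA with fewer footprints. It had 38.0 CPM in siPKM RNA and 22.4 in siCtrl RNA, against 12.04 CPM in siPKM RPF and 14.1 in siCtrl RPF. The log2 ratio was 0.72 (0.49 to 0.94) in RNA and -0.25 (-0.55 to 0.05) in RPF, and the TE change of -0.97 (-1.34 to -0.59) was the lowest of all 6532 genes. This value rests on few footprints, since its 151 CDS reads in siPKM RPF equal the lowest count of any gene in any library of the table. Where reads of the whole transcript were used in place of the CDS, the TE change of Zfp932 was -0.76. The share of its RNA reads that lay in the 5' UTR also differed, at 6.94% in siPKM and 13.9% in siCtrl.

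The other 4 members of the list differed little in RNA. Zfp568, a repressor of a placental transcript of Igf2, had an RNA ratio of 0.12 and an RPF ratio of 0.14. Zfp819, which represses retrotransposons in mouse stem cells, had 0.12 in RNA and 0.38 in RPF. Zfp809, which silences retroviruses that use a proline tRNA primer, had 0.05 in RNA and 0.25 in RPF. Zfp445, the partner of Zfp57 in imprint maintenance, had 0.02 in RNA and -0.27 in RPF, so the pair differed in both readouts. KRAB genes have near-identical copies, and the sources used here do not say how reads with several matches were counted, so single values of this class are uncertain.

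The corepressors these proteins recruit were examined as a list of genes outside the set. Of 29 symbols listed, 26 were in the table, and the median log2 ratio was -0.12 in RNA, with 5 genes above 0 and 21 below (7 and 19 with the authors' deposited values), and 0.00 in TE, with 13 above and 13 below. Trim28, the scaffold that binds the KRAB domain, had -0.28 in RNA and -0.38 in RPF. Setdb1 had -0.19 in RNA and -0.25 in RPF. The de novo DNA methyltransferase Dnmt3b was the only 1 of the 26 at least 1.5-fold lower in RNA, at -1.08, against 1.24% of all genes. In RPF 2 of the 26 were at least 1.5-fold lower, against 1.53% of all genes. These were Dnmt3b at -1.14 and Pphln1, a subunit of the HUSH silencing complex, at -0.68, with -0.40 in RNA. None was 1.5-fold higher in RNA or RPF. Atrx had the highest RNA ratio of the list, 0.41, with 0.13 in RPF.

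Transcription factors of stem cells and development formed the largest role list, with 10 of 14 listed genes in the table. Footprints were below 0 for 9 of the 10 under each scaling, and TE was below 0 for 9 of the 10, or 8 with edgeR TMM scaling. RNA was above 0 for 4 and below 0 for 6, and with the authors' deposited values, which are not centred, above 0 for 7. None was 1.5-fold apart in either direction in RNA, RPF or TE. The median log2 ratio was -0.02 in RNA, -0.13 in RPF and -0.19 in TE.

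Zfp462, a large zinc finger protein that restrains differentiation genes in stem cells, had the lowest TE change of the list. It had 128 CPM in siPKM RNA and 105 in siCtrl RNA, against 209 CPM in siPKM RPF and 255 in siCtrl RPF. Its RNA ratio was 0.24 (0.13 to 0.36), its RPF ratio -0.31 (-0.38 to -0.24) and its TE change -0.56 (-0.69 to -0.43), so the difference in TE exceeded counting error, with 2622 CDS footprints in siPKM and 3875 in siCtrl. Only Zfp932 had a lower TE change among the 96 members.

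Zfp609, a cofactor of the cohesin loader Nipbl and of the Integrator complex, followed with a TE change of -0.39 (-0.73 to -0.06), from 16.0 CPM in siPKM RNA and 14.3 in siCtrl RNA, and 53.0 CPM in siPKM RPF and 63.0 in siCtrl RPF. Zfp292, a large zinc finger transcription factor, had 156 CPM in siPKM RNA and 109 in siCtrl RNA, against 170 CPM in siPKM RPF and 152 in siCtrl RPF. For Zfp292 the RNA ratio of 0.47 (0.36 to 0.57) was larger than the RPF ratio of 0.14 (0.05 to 0.22), which left a TE change of -0.33 (-0.47 to -0.20). Zfp219 had its largest difference in footprints, with a ratio of -0.34 (-0.46 to -0.22), beside -0.10 in RNA and -0.24 in TE.

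The remaining factors lay nearer to the median gene. Zfp281, a partner of the pluripotency network, had ratios of -0.05 in RNA and -0.06 in RPF. Zfp296, a cofactor of Klf4, had -0.04 and -0.10, Zfp217, a subunit of corepressor complexes with Lsd1, had -0.01 and -0.18, and Zfp687 had -0.03 and -0.03. Zfp335, a subunit of histone H3 lysine methyltransferase complexes, had 0.17 in RNA and -0.04 in RPF. Zfp143, an activator bound at many promoters, was the exception in TE at 0.16, with an RNA ratio of -0.31 (-0.47 to -0.15). Zfp42 (Rex1), the pluripotency marker left out of the set, had -0.29 in RNA, -0.44 in RPF and -0.15 in TE.

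Among proteins that act on RNA and ribosomes, Zfp622 and Zfp207 had intervals below 0 in both readouts and Zfp106 in RPF only. Of 10 listed genes 7 were in the table, 5 of them were below 0 in RNA and 6 in RPF (5 with the authors' deposited values), and 0 were 1.5-fold apart. Zfp622, a factor in large ribosomal subunit assembly, had 164 CPM in siPKM RNA and 206 in siCtrl RNA, and 151 CPM in siPKM RPF and 184 in siCtrl RPF. Its ratios of -0.37 (-0.46 to -0.28) in RNA and -0.31 (-0.39 to -0.22) in RPF were the largest of this list, and its TE change was 0.06. Zfp598, the ubiquitin ligase that marks collided ribosomes, had 0.02 in RNA, -0.11 in RPF and -0.13 in TE. Zfp106, an RNA-binding protein, had 0.09 in RNA, with an interval above 0. It had -0.22 in RPF and -0.32 in TE, with both intervals below 0. Zfp207 (BuGZ), which acts at spindles and in splicing, had -0.15 in RNA and -0.18 in RPF. Zfp326, which links RNA polymerase II to splicing, Zfp593, a relative of a yeast ribosome export factor, and Zfp830, a splicing-associated protein, had RNA ratios of -0.07, -0.05 and -0.17.

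In the list of ubiquitin, SUMO and chromosome proteins, 4 of 5 genes were in the table, Zfp207 among them, and all 4 were below 0 in RNA with a median of -0.05, or 3 of 4 with the authors' deposited values. Zfp91, a ubiquitin ligase, had -0.05 in RNA, 0.21 in RPF and 0.25 in TE, and it was among the 3 members whose TE interval lay above 0. Zfp451, a SUMO ligase, had -0.06 in RNA and -0.13 in RPF. Zfp828 (Champ1), which aligns chromosomes on the spindle, had -0.02 in RNA, -0.25 in RPF and -0.23 in TE.

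Several members outside the role lists stood at the ends of the RNA comparison. Zfp654 had the highest RNA ratio of the set, with 41.7 CPM in siPKM RNA and 23.0 in siCtrl RNA, and 37.1 CPM in siPKM RPF and 25.1 in siCtrl RPF. The ratios were 0.81 (0.59 to 1.03) in RNA and 0.54 (0.35 to 0.74) in RPF. Zfp229 was the member past 1.5-fold in both readouts, at 0.60 (0.45 to 0.74) in RNA and 0.61 (0.42 to 0.79) in RPF. Its levels were 88.8 CPM in siPKM RNA and 56.8 in siCtrl RNA, and 44.0 CPM in siPKM RPF and 28.5 in siCtrl RPF. Zfp516, a transcription factor of the brown fat programme, had 35.2 CPM in siPKM RNA and 21.8 in siCtrl RNA, an RNA ratio of 0.64 (0.41 to 0.87) that was only partly met by an RPF ratio of 0.27 (0.03 to 0.52).

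At the low end, Zfp566 had 17.3 CPM in siPKM RNA and 24.4 in siCtrl RNA, and 13.2 CPM in siPKM RPF and 18.1 in siCtrl RPF. Its ratios of -0.54 (-0.81 to -0.28) in RNA and -0.48 (-0.76 to -0.20) in RPF were the lowest of the set in each readout. Zfp473, which takes part in the 3' end processing of histone messages, had -0.32 (-0.45 to -0.20) in RNA and -0.43 (-0.65 to -0.22) in RPF. Zfp110, a neurotrophin receptor interacting factor, had -0.30 in RNA and Zfp512 had -0.26. The RPF intervals of Zfp566, Zfp473 and Zfp110 were below 0 as well, whereas that of Zfp512 (-0.27 to 0.05) included 0, and the TE intervals of all 4 included 0.

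**Figure D2:**
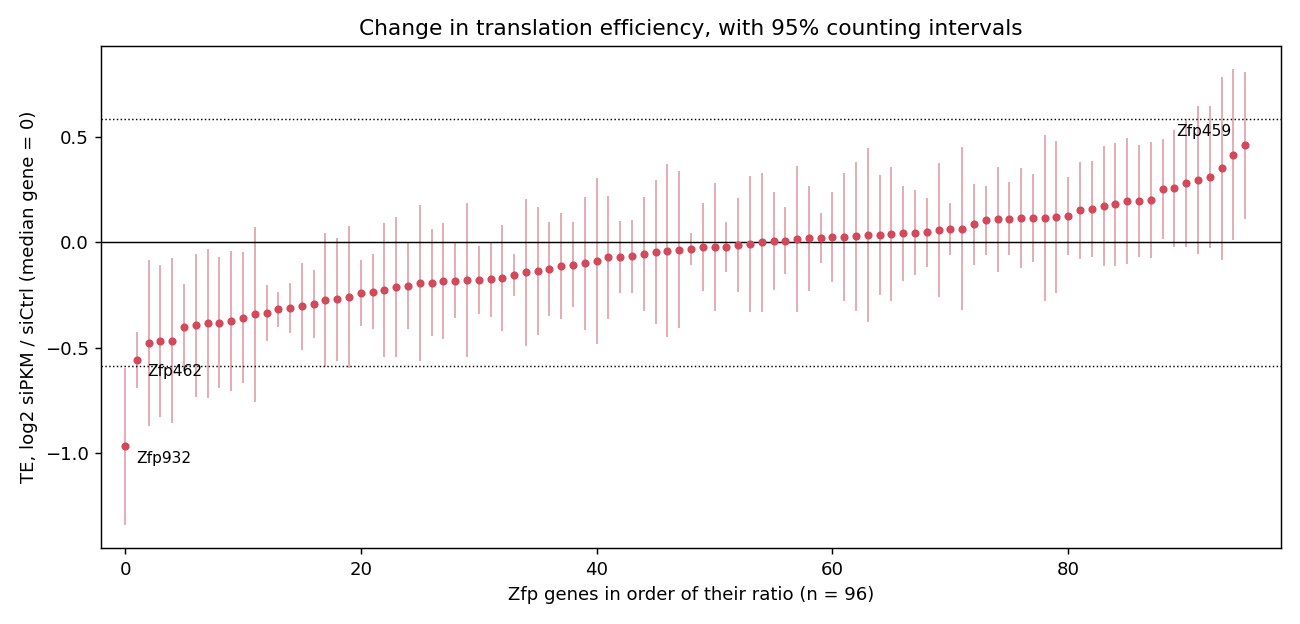
The 96 Zfp genes stand in order of their log2 change in TE, siPKM over siCtrl (vertical axis), with 95% counting intervals as vertical bars and dotted lines at 1.5-fold. Zfp932 at -0.97 is the only member past 1.5-fold, followed by Zfp462 at -0.56, and the highest is Zfp459 at 0.46.

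Members whose footprints did not follow their RNA lay on both sides, but more often on the low side of TE. After Zfp932 and Zfp462 the lowest TE changes were those of Zfp111 at -0.48 (-0.87 to -0.08), Zfp161 (now Zbtb14) at -0.47 (-0.83 to -0.11), Zfp839 at -0.47 (-0.86 to -0.07) and Zfp318 at -0.40 (-0.61 to -0.20). Zfp318 is known for its part in the processing of immunoglobulin transcripts in B cells. The highest were Zfp459 at 0.46 (0.11 to 0.81), Zfp623 at 0.42 (0.01 to 0.82), Zfp668 at 0.35, Zfp945 at 0.31, Zfp191 (now Zfp24), a factor in myelination, at 0.30 and Zfp870 at 0.28, and only the first 2 of these intervals excluded 0. In footprints alone the next highest after Zfp229 and Zfp654 were Zfp317 at 0.54 (0.30 to 0.78), Zfp57 at 0.48, Zfp668 at 0.47 and Zfp763 at 0.42. The lowest after Zfp566 and Zfp473 were Zfp219 at -0.34, Zfp839 at -0.31, Zfp428 at -0.31 and Zfp462 at -0.31.

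Together, 38 members (39.6%) were above 0 in RNA and below 0 in TE, against 32.0% of all genes. The RNA count enters both values with opposite sign, so some of this pattern is built into the measure. Across the 96 members, which share 4 libraries and are not replicates, Pearson's r between the RNA and RPF ratios was 0.53 and Spearman's rho 0.44, against 0.73 and 0.67 over all 6532 genes. Counting noise lowers a correlation, and the median member had fewer reads than the median gene, 406 against 704 in siPKM RPF and 451 against 838 in siCtrl RPF. The part of read depth in this difference was not tested.

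Translation efficiency within each siRNA group was below the median gene for most Zfp genes. The members' median log2 TE, centred on the median gene, was -0.40 in siPKM and -0.35 in siCtrl, with 68 members below 0 in siPKM and 61 in siCtrl. In both groups at least 2-fold below the median gene were 12 members (12.5%), against 7.65% of all genes. At least 2-fold above it in both were 5 members (5.21%), against 7.99% of all genes. With RNA reads of the whole transcript in the ratio, 23 members (24.0%) were 2-fold below, against 12.6% of all genes. Among genes averaging at least 8 times the planned floor of 64 CDS reads in RNA and likewise in footprints, 2 of 34 members (5.88%) were 2-fold below, against 5.19% of all such genes. That floor also applies to footprints, which are few where TE is low, and most of the low group fell under it. By quartiles of siPKM RNA reads, the member medians in siPKM were -0.12, -0.40, -0.46 and -0.50 from lowest to highest, against 0.03, -0.07, -0.10 and 0.10 for all genes. In siCtrl they were 0.10, -0.33, -0.47 and -0.36, against 0.06, -0.06, -0.08 and 0.09, so in the lowest quartile, with 30 members, the siCtrl median was not below that of all genes.

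**Figure D3:**
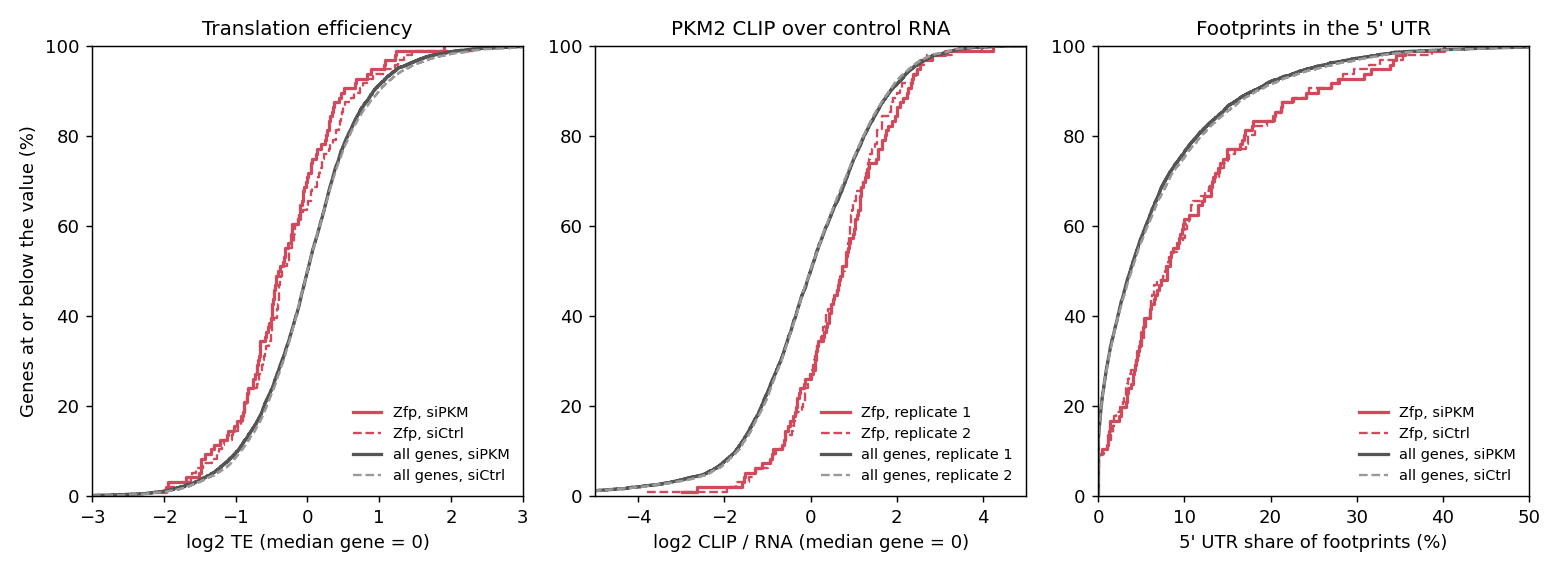
Cumulative curves give the percentage of genes (vertical axis) at or below each log2 TE (left), log2 CLIP over RNA (centre) and 5' UTR share of footprints in percent (right), for the 96 Zfp genes in red and all 6532 genes in grey, with siCtrl or replicate 2 dashed. The Zfp curves lie to the left in TE, with medians of -0.40 in siPKM and -0.35 in siCtrl, and to the right in CLIP over RNA (0.73 and 0.77) and in the 5' UTR share (7.97% in siPKM and 7.78% in siCtrl).

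The lowest TE values were close in both siRNA groups. Zfp639 had a log2 TE of -2.11 in siPKM and -2.07 in siCtrl, and Zfp35 had -1.98 in both. Zfp646 had -1.94 in siPKM and -1.62 in siCtrl, Zfp473 had -1.69 and -1.56, Zfp410, an activator of the remodeller gene Chd4, had -1.51 and -1.60, and Zfp91 had -1.48 and -1.71. For Zfp35 this meant 54.3 CPM of RNA beside 12.2 CPM of footprints in siPKM, and 51.3 beside 11.5 in siCtrl. The other members 2-fold below in both groups were Zfp64, Zfp266, Zfp317, Zfp407, Zfp652 and Zfp819.

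The high end was held largely by regulators from the role lists. Zfp609 had a log2 TE of 1.90 in siPKM and 2.31 in siCtrl, Zfp423, a factor in neural and fat cell development, 1.23 and 1.26, and Zfp326 1.22 and 1.21. Zfp828 had 1.09 in siPKM and 1.34 in siCtrl, Zfp687 had 1.06 and 1.09, and Zfp462 had 0.88 and 1.46. Zfp462 and Zfp609 were thus well translated in both groups, at a lower value in siPKM. Across the 96 members the TE in siPKM and in siCtrl had a Pearson correlation of 0.96, against 0.97 over all genes.

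Footprints upstream of the CDS took a larger share of the reads of Zfp messages than of most genes. Over all 96 members the median share of RPF reads in the 5' UTR was 7.97% in siPKM and 7.78% in siCtrl, against 3.71% and 3.85% over all genes. The matching share of RNA reads was 3.54% in siPKM and 3.76% in siCtrl, against 2.57% and 2.67% over all genes, so the RNA share was higher as well but by less. At least 10 such footprints in each library were found for 78 members (81.3%), against 68.3% of all genes, and among them the median was 9.72% in siPKM and 10.2% in siCtrl, against 6.75% and 6.97%. At or above 20% were 16 members (16.7%) in siPKM and 16 in siCtrl, against 7.93% of all genes in siPKM and 8.56% in siCtrl. The difference held in each quartile of genes by siPKM RNA reads, with member medians from 6.82% to 10.3% in siPKM beside 3.31% to 4.22% for all genes.

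Zfp317 had the highest share, with 221 of 551 RPF reads in the 5' UTR in siPKM (40.1%, exact Clopper-Pearson interval 36.0 to 44.3) and 181 of 450 in siCtrl (40.2%, 35.7 to 44.9). The siPKM and siCtrl shares of Zfp317 were thus indistinguishable at this depth. Zfp35 had 35.7% (29.8 to 41.8) in siPKM and 35.4% (29.8 to 41.3) in siCtrl. Zfp428 had 34.5% in siPKM and 32.7% in siCtrl, but its RNA reads also lay there for 38.4% and 39.1%, so its footprints were not above its RNA. Zfp706, a small protein that in mouse stem cells favours exit from self-renewal, had 33.9% (31.4 to 36.4) in siPKM and 38.7% (36.5 to 41.0) in siCtrl. It was the only one of the 78 members with at least 10 such reads (1.28%) whose siPKM and siCtrl intervals did not overlap, against 229 of 4461 genes (5.13%).

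At the other end, 6 members (6.25%) had 0 footprints in the 5' UTR in both libraries, against 10.4% of all genes, namely Zfp64, Zfp259 (now Zpr1), Zfp598, Zfp777, Zfp830 and Zfp839. For Zfp598, 0 of 818 RPF reads in siPKM and 0 of 1047 in siCtrl allow shares of up to 0.367% and 0.287%, counting 3 reads as the limit. For Zfp839 the limits were 1.36% in siPKM and 0.920% in siCtrl. RNA reads in the 5' UTR were found for 92 of the 96 members in siPKM and 91 in siCtrl, so some members had none there in RNA either. The lengths of the annotated 5' UTRs were not examined, so 0 footprints are not shown to be an absence of upstream ribosomes.

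Members with many upstream footprints were mostly those of low TE. In siPKM 14 of the 16 members at or above 20% had a log2 TE below 0, with a median of -1.01, against 54 of the other 80, with a median of -0.32. In siCtrl 12 of 16 were below 0, with a median of -0.81, against 49 of the other 80, with a median of -0.26. The same relation was present among all genes, where 68.1% of those at or above 20% and 48.4% of the rest were below 0 in siPKM, and 66.5% and 48.5% in siCtrl. Across the 96 members the share and the TE had a Pearson correlation of -0.41 in siPKM and -0.38 in siCtrl, against -0.20 and -0.20 over all genes. Both axes use the same footprint library, and fewer CDS footprints raise the share and lower the TE together.

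**Figure D4:**
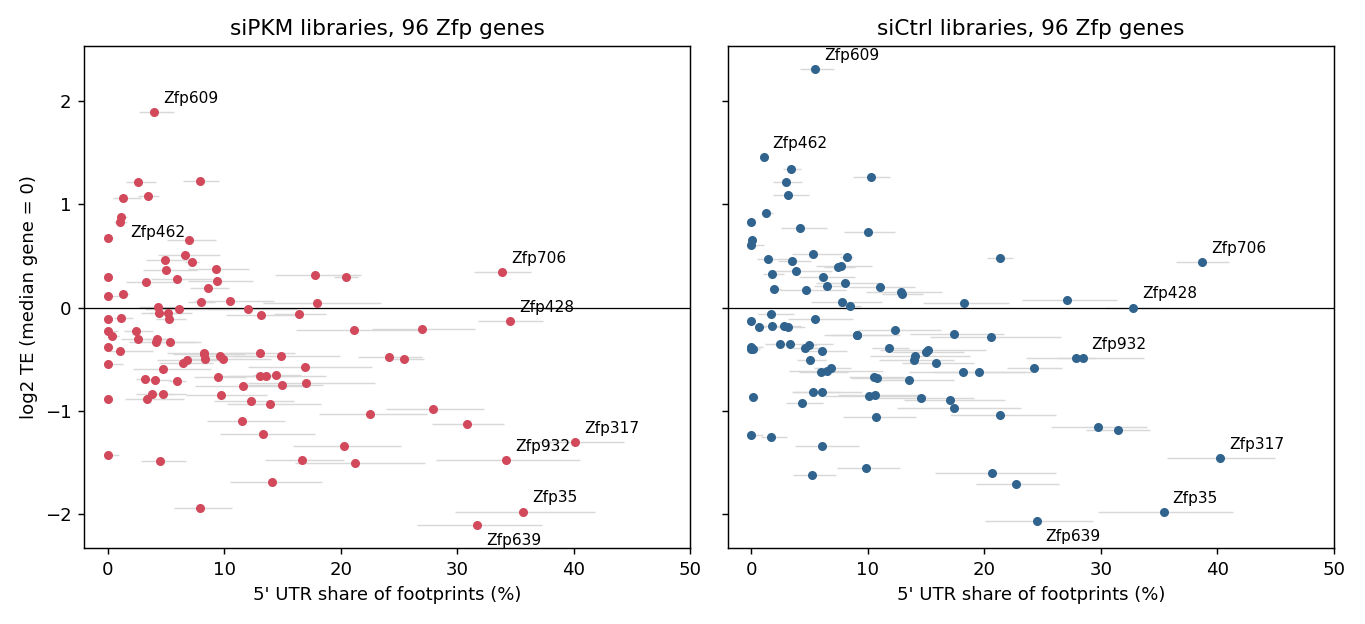
For the siPKM libraries (left) and the siCtrl libraries (right), each point is 1 of the 96 Zfp genes, with the share of its RPF reads in the 5' UTR in percent (horizontal axis, with exact 95% intervals) and its log2 TE relative to the median gene (vertical axis). Zfp317, Zfp35 and Zfp639 are at the lower right in siPKM, whereas Zfp609 and Zfp462 are high in TE with shares of 4.01% and 1.19% in siPKM and 5.50% and 1.08% in siCtrl.

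Footprints in the 3' UTR were rare, with a member median of 0.176% in siPKM and 0.133% in siCtrl, against 0.0942% and 0.124% over all genes. Zfp459 was the exception. Its 3' UTR held 29.6% (25.4 to 34.1) of RPF reads in siPKM and 33.8% (29.6 to 38.3) in siCtrl, the third highest share of all 6532 genes in each library. With reads of the whole transcript its TE change was 0.09 and its RNA ratio 0.09, in place of 0.46 and -0.18 from the CDS, so its place as the highest TE change depended on the region counted. Next among the members were Zfp740 with 9.07% in siPKM and 10.3% in siCtrl, and Zfp706 with 8.55% and 7.15%. In the first 15 codons Zfp706 had 19.7% of its footprints in siPKM and 16.9% in siCtrl, against member medians of 3.01% and 2.74%. That share depends on the length of the CDS, and Zfp706 is a small protein. Coding lengths were not among the sources used here, so the shares are not compared per length.

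PKM2 CLIP stops relative to RNA were higher on Zfp messages than on the median gene in both replicates. CLIP over RNA is the log2 of the stop CPM over the siCtrl RNA CPM of the whole transcript, centred on the median gene. The members' median was 0.73 in replicate 1 and 0.77 in replicate 2, with 71 and 70 of 96 members above 0. At least 2-fold above the median gene in both replicates were 32 members (33.3%), against 22.0% of all genes, and 5 were at least 2-fold below (5.21%), against 17.7%. The table includes background stops, no CLIP library without the tag was used here, and the RNA came from cells without the tag, so these are relative values and not binding. All 96 members had stops in both replicates, with medians of 58.5 and 56.5 beside 55 and 54 over all genes.

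Among all genes CLIP over RNA was higher on messages with fewer RNA reads, with a replicate 1 median of 0.50 in the lowest quartile and -0.64 in the highest, so the members were also set beside genes of similar RNA level. Centred within quartiles of siPKM RNA reads, 32 members (33.3%) were 2-fold above, against 21.2% of all genes, and 6 (6.25%) were 2-fold below, against 16.6%. With siPKM RNA as the denominator, 30 members (31.3%) were 2-fold above, against 20.2% of all genes. The count thus stayed above the background with either adjustment, but the members' median CLIP over RNA was lower. Over both replicates that median was 0.53 within quartiles and 0.66 over siPKM RNA, in place of 0.79.

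**Figure D5:**
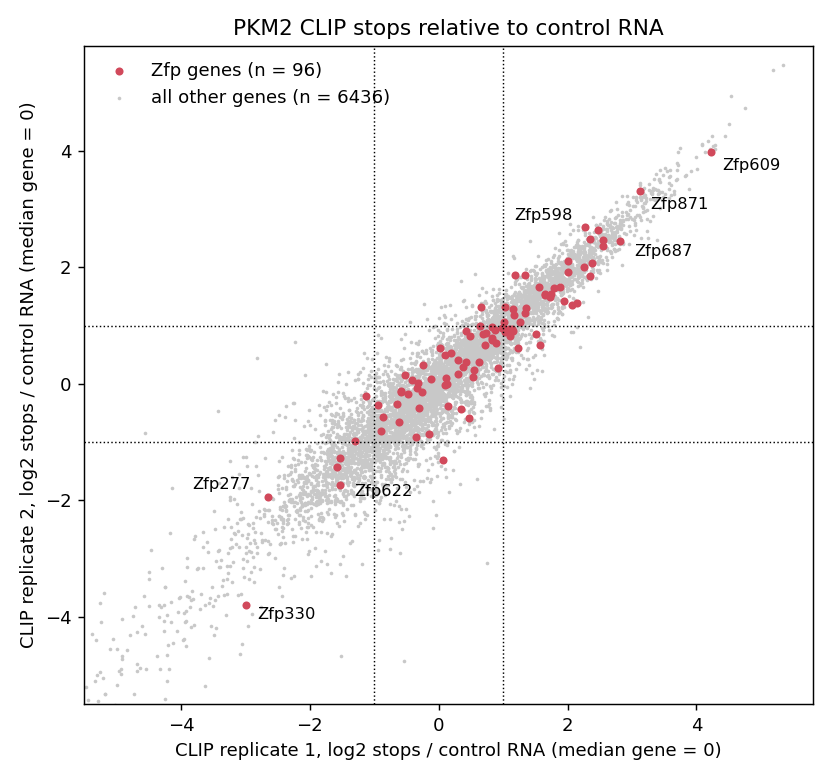
CLIP over RNA (log2, median gene at 0) in replicate 1 (horizontal axis) and replicate 2 (vertical axis) for the 96 Zfp genes in red and all other genes in grey, with dotted lines at 2-fold; 74 other genes lie outside the axes. In the upper right quadrant 32 Zfp genes are past both lines, with Zfp609 and Zfp871 highest, and 5 are past both lines at the lower left, with Zfp330 lowest.

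Zfp609 had the highest CLIP over RNA of the set, at 4.11 ± 0.17 (SD, n = 2 replicates), from 213 and 177 stops, and ranked 13 among all genes. Its CDS RNA level in siCtrl was near the lowest of the set, which was 14.0 CPM. The SD covers the stops and not the RNA count, and its high TE in siCtrl rests on the same RNA library. Zfp871 followed at 3.21 ± 0.13, from 601 and 673 stops. Zfp687 had 2.63 ± 0.26, Zfp598 2.55 ± 0.12, Zfp292 2.51 ± 0.05 and Zfp945 2.48 ± 0.30. Zfp609, Zfp687 and Zfp292 belong to the list of transcription factors, in which 5 of 10 were 2-fold above, the other two being Zfp335 and Zfp462. In the RNA and ribosome list 1 of 7 was, Zfp598, in the KRAB list 2 of 6, Zfp445 and Zfp809, and in the ubiquitin list 1 of 4, Zfp91. The share was 33.3% over all members and 22% over all genes, and lists this short do not tell the roles apart.

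The lowest was Zfp330, a nucleolar protein, at -3.39 ± 0.57 from 11 and 6 stops. Zfp277, a partner of Polycomb proteins, had -2.29 ± 0.50 from 11 and 18 stops, Zfp622 had -1.64 ± 0.15, Zfp473 -1.50 ± 0.11, Zfp59 -1.41 ± 0.19 and Zfp105 -1.14 ± 0.22. Stops per transcript, which grow with a message's length and level and are not compared per length here, were most numerous on Zfp106 at 954 ± 91.6 CPM, Zfp871 at 945 ± 82.5 and Zfp266, a barrier to reprogramming, at 633 ± 19.5. Zfp532, a relative of Zfp687, followed at 570 ± 56.6, then Zfp292 at 547 ± 21.1, Zfp568 at 485 ± 61.3, Zfp281 at 451 ± 9.26 and Zfp207 at 403 ± 22.9 (SD, n = 2 replicates each). Zfp568 and Zfp207 had many stops but a CLIP over RNA of -0.20 each.

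The knockdown values of the members were set beside their CLIP class. The 32 members 2-fold above in CLIP over RNA had a median RNA ratio of 0.12, an RPF ratio of 0.05 and a TE change of -0.11, with 20 of 32 below 0 in TE. The 59 members between the limits had medians of 0.02, -0.00 and -0.03, and the 5 members 2-fold below had 0.00, 0.11 and 0.01. Among all genes the 1434 in the upper class had medians of 0.16 in RNA and -0.10 in TE, close to those of the Zfp genes of that class. CLIP over RNA and the knockdown ratios share the siCtrl RNA library, so no relation between them is drawn from these values.

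Other zinc finger families gave a frame for these values. The 17 genes with a Zbtb symbol had a median RNA ratio of 0.15. Their median log2 TE was -0.10 in siPKM and -0.18 in siCtrl, and their CLIP over RNA was 0.54 and 0.46 in the replicates. Families were taken by symbol alone, so these 17 include Zbtb8os, which is not a zinc finger gene of that family. The siCtrl TE median was the value of Zbtb8os itself, and Zbtb8os had 4 and 0 CLIP stops. The 5 genes named Zfp with a letter after the digits had an RNA ratio of 0.43, a log2 TE of -0.21 in siPKM and 0.06 in siCtrl, and a CLIP over RNA of 1.03 and 1.08. The 5 Zscan and Zkscan genes had an RNA ratio of 0.20, a CLIP over RNA of 0.08 and 0.61, and a log2 TE of -0.40 in siPKM and -0.39 in siCtrl, close to the Zfp medians of -0.40 and -0.35. The 7 Klf genes had a higher TE, 0.55 in siPKM and 0.76 in siCtrl, beside 5' UTR shares of 14.8% and 15.6%. Such medians can come from different genes and do not show how share and TE went together within the family. In siPKM, Klf9 had a share of 29.4% and a log2 TE of -0.35, and Klf3 had 26.3% and 1.64. The 11 Zc3h genes, whose fingers usually bind RNA, had a log2 TE of 0.02 in siPKM and 0.15 in siCtrl and a CLIP over RNA of 0.12 and 0.15.

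Zfp genes often lie in clusters of related copies. Of the members, 94 were matched by accession to the RefSeq gene table of assembly GRCm38.p6, which placed 21 on chromosome 7, 12 on chromosome 17, 9 on chromosome 9 and 8 on chromosome 5. Within 5 protein-coding genes of another member lay 33, in 15 clusters. The largest was on chromosome 17 and held Zfp871, Zfp799, Zfp870, Zfp472 and Zfp763. RNA ratios in it ran from -0.19 to 0.39 and CLIP over RNA from 0.04 to 3.21, so neighbours differed widely. Zfp566 and Zfp568, neighbours on chromosome 7, had RNA ratios of -0.54 and 0.12.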

How the data were processed

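The authors deposited raw counts of reads per transcript region (5' UTR, first 15 codons, remaining CDS, last 5 codons, 3' UTR) and of reverse transcription stops, per the file headers. They also deposited log2 RPM and log2 TE values, which were used only as an alternative. The submitters' processing notes name cutadapt, Bowtie2 and the mm9 build. Versions and the handling of strand and of reads with several matches: not given in the sources used here. Genes in the table had more than 150 CDS reads in each RNA and RPF library, so weaker Zfp genes are not analysed here.

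CDS counts plus 0.5 were scaled by the library's sum and their log2 ratios centred on the median of 6532 genes (Python 3.11.15, numpy 2.4.6, pandas 2.3.3). The planned floor, a mean of 64 reads, removed 0 genes. Ratio intervals use the normal approximation to read counts, and shares have exact Clopper-Pearson intervals (scipy 1.17.1). Both cover counting error only, because each kind of library was made once per siRNA group. Reads copied by PCR are not separate molecules, so even the counting error may be larger than these intervals show. The edgeR package (4.0.16) gave TMM factors as an alternative. The ratio calculation was tested on simulated data. Folds of 1.5 (knockdown) and 2 (TE within a group, CLIP) were counted without a test.

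Members and gene lists were chosen with earlier results of these data known. Named were the members at the ends of each measure, those past 1.5-fold and the role lists. A planned ranking by RNA reads per coding length and a count of zinc fingers per protein were not made, because the coding lengths and proteins they need were not among the sources used here. The RefSeq table served for names and neighbours only; 7 members have other current symbols.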

Additional observations from a re-analysis of the deposited data

How the results depend on the processing

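No paired analysis was possible because RNA and RPF were each sequenced once per siRNA group and the CLIP replicates have no partner group. No ratio at least 1.5-fold apart changed sign under the alternatives tried. Among smaller values 1 median (RPF, below) and 7 single values, of Zfp191, Zfp229, Zfp428, Zfp459 and Zfp945, did. Of 516 values of 27 single members 514 stayed within their counting intervals. The exceptions were the RNA and TE changes of Zfp459 with whole-transcript reads. This tally overstates the check, because leaving out the floor, which removed 0 genes, could change no value. The authors' deposited values and TMM scaling moved all genes by nearly the same small amount. Among 34 members averaging at least 8 times the planned floor of 64 reads, 1 was 1.5-fold higher in RNA, 0 in RPF and 0 were lower in TE, the median RPF ratio was -0.070, and 2 were 2-fold below and 1 above in TE within groups, with medians of -0.32 in siPKM and -0.25 in siCtrl; fewer genes were tested there. With all CDS reads or the whole transcript, 0 members were 1.5-fold higher in RPF. At 2-fold, 0 were higher in RNA, 0 higher in RPF and 0 lower in TE. On the nearer interval bound, 1 was higher in RNA and 0 in RPF. The authors' deposited log2 values, not centred, gave a median RNA ratio of 0.10, where the median of all genes was 0.04. RNA reads of the whole transcript put 23 members 2-fold below in TE, with medians of -0.54 in siPKM and -0.46 in siCtrl. With members whose current symbol is no longer Zfp and digits left out, the median TE in siPKM was -0.44. Centring all members within quartiles of RNA reads gave -0.35 (both settings were chosen after seeing the data). The median CLIP over RNA over both replicates was 0.79. It was 0.73 and 0.77 with 1 replicate left out, 0.93 over CDS RNA, 1.13 over siCtrl footprints, 0.66 over siPKM RNA, 0.63 with 10 counts added, 0.71 for genes with at least 10 stops and 0.53 within quartiles. The median 5' UTR share was 11.2% in siPKM and 12.1% in siCtrl relative to CDS reads, and 13.3% and 12.9% for members with at least 30 such footprints. The cause of these shifts was not tested. Depth limits single values most for members near 150 reads.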
